A study of Mus musculus with 12 samples.

Results

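The corticoid receptor genes and a set of genes known to respond to corticoid hormones were followed in mouse left ventricle. The 10 genes, chosen by symbol, were the receptors Nr3c1 and Nr3c2, the hormone-activating enzyme gene Hsd11b1, and the response genes Sgk1, Fkbp5, Tsc22d3, Zbtb16, Klf9, Lcn2 and Errfi1. All 10 were found in the table of 78334 genes and all 10 had enough counts to be among the 16981 genes tested. Poly(A) RNA was sequenced in 12 libraries, with 4 biological replicates in each of 3 groups. UNX/DOCA ITF2357 mice had UNX/DOCA surgery, in which a kidney is removed and deoxycorticosterone acetate is supplied, and from 4 weeks later ate chow containing ITF2357 for 4 weeks. ITF2357 is givinostat, a drug that blocks histone deacetylase enzymes. UNX/DOCA vehicle mice had the same surgery and ate normal chow, and Sham vehicle mice had a sham operation and normal chow. UNX/DOCA is used as a model of diastolic dysfunction. The labels name no genetic change and give no strain, sex, age or drug dose, and no Sham group received ITF2357. Libraries held 23.4 to 34.9 M counts, and 8 cardiomyocyte markers summed to 53600 CPM or more in each library (CPM is the count scaled to library size, here after TMM scaling).

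Glucocorticoids and mineralocorticoids act through a pair of related nuclear receptors, the glucocorticoid receptor (gene Nr3c1) and the mineralocorticoid receptor (gene Nr3c2). Without hormone these receptors are held in the cytoplasm by heat shock protein chaperones, and with hormone they enter the nucleus and bind DNA elements that both can share. Deoxycorticosterone is a mineralocorticoid and a precursor of aldosterone. Heart muscle has little of the enzyme Hsd11b2 that inactivates glucocorticoids, so in heart the mineralocorticoid receptor is known to be open to glucocorticoids as well, and its activity has been linked to fibrosis and inflammation.

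None of the 10 genes passed the test in any of the 3 comparisons (edgeR quasi-likelihood test, adjusted p under 0.05 over all 16981 genes). For UNX/DOCA ITF2357 against UNX/DOCA vehicle, 0 of 10 were called, where 0.901% of all genes were. In that comparison 2 of 10 had an unadjusted p under 0.05, against 18.5% of all genes, and both, Lcn2 and Errfi1, were lower with the drug (all genes, 8.7% higher and 9.8% lower). For UNX/DOCA vehicle against Sham vehicle the call was 0 of 10, as for all genes (0%), with 3 of 10 at an unadjusted p under 0.05 against 15.9% of all genes. These were Lcn2, higher in UNX/DOCA vehicle, and Nr3c1 and Nr3c2, lower (all genes, 9.42% higher and 6.47% lower). For UNX/DOCA ITF2357 against Sham vehicle it was again 0 of 10, against 1.75% of all genes, with 3 of 10 at an unadjusted p under 0.05 against 20.1%. These were Tsc22d3 and Klf9, higher with the drug, and Errfi1, lower (all genes, 10.7% higher and 9.39% lower). Groups of libraries did not overlap for 0, 0 and 2 of the 10 genes in these comparisons, where 9.31%, 9.39% and 13.7% of all genes did not overlap. DESeq2 called 2, 1 and 1 of the 10, where it called 5.46%, 3.49% and 6.95% of all genes. The counts were 0, 0 and 2 with limma-voom, against 1.41%, 3.29% and 9% of all genes. Each pair of comparisons shares a group of libraries, so they are not independent of each other.

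**Figure D1:**
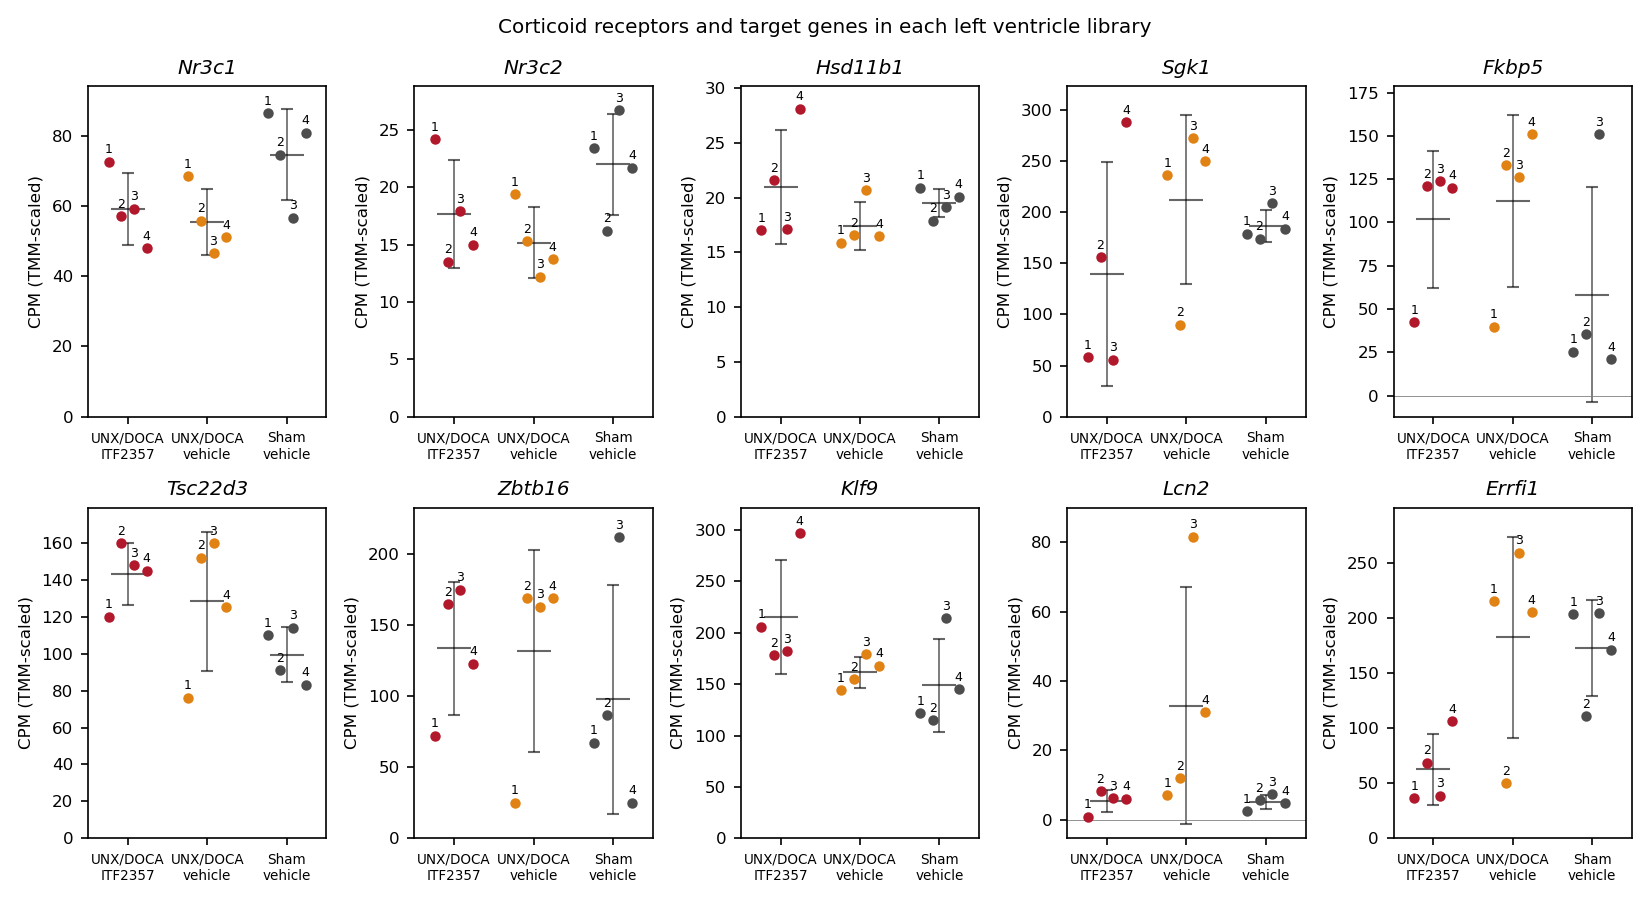
TMM-scaled CPM of the 10 genes in each library, with 4 libraries per group numbered by replicate, a bar at the group mean and whiskers of 1 SD. Fkbp5 lies at separate low and high levels inside each group, Zbtb16 spreads from 25 to 212 CPM, and Lcn2 is highest in UNX/DOCA vehicle replicates 3 (81.6 CPM) and 4 (31.0 CPM).

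Levels were compared between genes only per length of exon, as CPM per kb. The length was that of all annotated exons of a gene merged, not of the transcripts expressed, so the order is approximate. In Sham vehicle hearts Errfi1 stood highest at 48.1 ± 12.2 CPM per kb, followed by Sgk1 at 38.0 ± 3.17 and Klf9 at 30.9 ± 9.38 (SD, n = 4 each). Tsc22d3 came next at 22.9 ± 3.42 CPM per kb, then Zbtb16 at 18.5 ± 15.2 and Nr3c1 at 9.71 ± 1.68. Fkbp5 (6.15 ± 6.56), Hsd11b1 (4.59 ± 0.305), Nr3c2 (3.4 ± 0.678) and Lcn2 (1.92 ± 0.780) were the lowest. Neighbours in this order differed by less than the larger of their SDs, apart from Nr3c2 and Lcn2, and Hsd11b1 and Nr3c2. In UNX/DOCA ITF2357 hearts the level of Errfi1 was 17.4 ± 9.09 CPM per kb, below the means of Klf9 (44.8 ± 11.5), Tsc22d3 (33.0 ± 3.87), Sgk1 (28.5 ± 22.3) and Zbtb16 (25.3 ± 8.86). In UNX/DOCA vehicle hearts it was 50.9 ± 25.4 CPM per kb, above the 9 other genes, with Sgk1 next at 43.2 ± 16.9.

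Nr3c1, the glucocorticoid receptor gene, had 72.6, 57.0, 59.2 and 47.9 CPM in UNX/DOCA ITF2357 replicates 1 to 4. It had 68.4, 55.8, 46.6 and 51.0 CPM in UNX/DOCA vehicle, against 86.4, 74.6, 56.6 and 80.8 CPM in Sham vehicle. Both UNX/DOCA groups lay mostly under the Sham values, but Sham replicate 3 lay among them, so all groups overlapped. The fitted log2 fold change was -0.43 ± 0.16 SE for UNX/DOCA vehicle against Sham vehicle (adjusted p = 0.219) and -0.33 ± 0.16 for UNX/DOCA ITF2357 against Sham vehicle (adjusted p = 0.252). Between the drug and vehicle groups it was 0.09 ± 0.16 (adjusted p = 0.792). In bulk tissue, fewer cells of a type and less RNA per cell cannot be told apart, here and for every gene below.

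Nr3c2, the mineralocorticoid receptor gene, had 24.2, 13.5, 17.9 and 15.0 CPM in UNX/DOCA ITF2357. The values were 19.4, 15.3, 12.2 and 13.7 CPM in UNX/DOCA vehicle, against 23.4, 16.2, 26.7 and 21.7 CPM in Sham vehicle. The groups overlapped, since drug replicates 1 and 3 and vehicle replicate 1 lay above the lowest Sham library. Log2 fold changes were 0.22 ± 0.20 for drug against vehicle (adjusted p = 0.598), -0.54 ± 0.20 for UNX/DOCA vehicle against Sham vehicle (adjusted p = 0.236) and -0.32 ± 0.20 for drug against Sham vehicle (adjusted p = 0.412). Per kb of exon, Nr3c2 stood at 28.2% to 39.6% of Nr3c1 in UNX/DOCA ITF2357, 31.0% to 33.7% in UNX/DOCA vehicle, against 25.7% to 56.1% in Sham vehicle. The mineralocorticoid receptor transcript was thus the less abundant of the pair in each of the 12 libraries. An exon of a long noncoding gene on the other strand overlaps 3.8% of the exon bases of Nr3c2 and was itself too low to test.

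Hsd11b1 encodes the enzyme that regenerates active glucocorticoid inside cells. It had 17, 21.6, 17.1 and 28.1 CPM in UNX/DOCA ITF2357, 15.9, 16.6, 20.7 and 16.5 CPM in UNX/DOCA vehicle, against 20.9, 17.9, 19.1 and 20.1 CPM in Sham vehicle. The values of all groups overlapped, and it was among the least variable of the 10 genes, with a coefficient of variation of 6.65% over the Sham libraries. No comparison passed (adjusted p = 0.362 for drug against vehicle, 0.628 for UNX/DOCA vehicle against Sham and 0.747 for drug against Sham). Hsd11b2, the opposing enzyme, had 3 to 8 counts in each library and was not tested.

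Fkbp5 encodes a co-chaperone that is induced by glucocorticoids and lowers the receptor's affinity for hormone. It had 42.4, 121, 124 and 120 CPM in UNX/DOCA ITF2357, 39.9, 133, 126 and 151 CPM in UNX/DOCA vehicle, against 25.4, 35.6, 151 and 20.9 CPM in Sham vehicle. Libraries lay either at 42.4 CPM or less or at 120 CPM or more, and each group held both kinds. Replicate 1 was the low library in both UNX/DOCA groups, while replicate 3 was the high one in Sham vehicle. The log2 fold change was 0.95 ± 0.66 for UNX/DOCA vehicle against Sham vehicle (adjusted p = 0.517) and 0.81 ± 0.66 for drug against Sham vehicle (adjusted p = 0.530). Without Sham vehicle replicate 3 these became 2.03 (adjusted p = 0.131) and 1.89 (adjusted p = 0.0681). Drug and vehicle differed by -0.14 ± 0.65 (adjusted p = 0.931).

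Zbtb16 encodes a zinc finger repressor strongly induced by glucocorticoids in many tissues. Its values were 72.3, 165, 175 and 123 CPM in UNX/DOCA ITF2357 and 25, 169, 163 and 169 CPM in UNX/DOCA vehicle. Sham vehicle libraries had 67.4, 86.5, 212 and 25.1 CPM. The lowest library of each UNX/DOCA group and the highest Sham library were the same libraries as for Fkbp5. No comparison passed, with log2 fold changes of 0.03 ± 0.66 (drug against vehicle, adjusted p = 0.989), 0.43 ± 0.66 (UNX/DOCA vehicle against Sham, adjusted p = 0.790) and 0.45 ± 0.66 (drug against Sham, adjusted p = 0.747). The spread inside the Sham group covered 8.45-fold for Zbtb16 and 7.22-fold for Fkbp5, both wider than any fold between group means of that gene.

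Inside the groups the receptor gene Nr3c1 ran the other way from Fkbp5. UNX/DOCA ITF2357 replicate 1 had the lowest Fkbp5 of its group (42.4 CPM) and the highest Nr3c1 (72.6 CPM). UNX/DOCA vehicle replicate 1 likewise had the lowest Fkbp5 (39.9 CPM) and the highest Nr3c1 (68.4 CPM). In Sham vehicle, replicate 3 had the highest Fkbp5 (151 CPM) and the lowest Nr3c1 (56.6 CPM). This pattern was noticed in the values and is given as a description with no test. Nr3c2 followed Nr3c1 in replicate 1 of both UNX/DOCA groups, where it was also at its highest, but in Sham replicate 3 it was at its highest (26.7 CPM) while Nr3c1 was at its lowest.

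**Figure D2:**
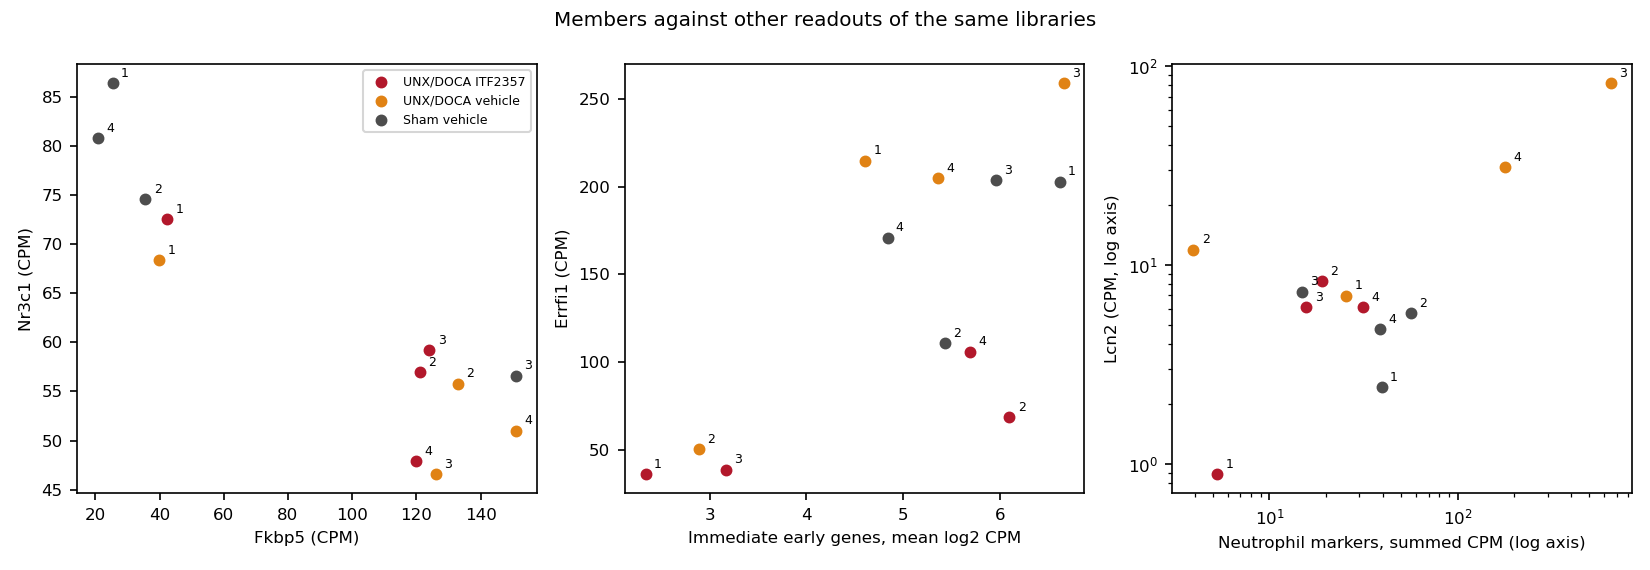
Nr3c1 against Fkbp5, Errfi1 against the mean of 14 immediate early genes, and Lcn2 against the summed level of 10 neutrophil markers, with 1 point per library numbered by replicate. The 12 libraries fall at separate Fkbp5 levels, and the highest Lcn2 libraries, UNX/DOCA vehicle replicates 3 and 4, have neutrophil marker sums of 653 and 178 CPM.

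Corticoid target genes vary over the day with hormone release, and the core clock genes differed between the same libraries. The first component of 16 clock genes, which held 59.3% of their variance and is higher with more Arntl (the activator Bmal1), was -0.63, -3.51, -2.75 and -2.30 in UNX/DOCA ITF2357. It was 6.25, -2.23, -2.33 and 0.90 in UNX/DOCA vehicle, and 3.20, 1.28, -1.60 and 3.74 in Sham vehicle. Replicate 1 was thus the highest of each UNX/DOCA group and replicate 3 the lowest of Sham vehicle, as for low and high Fkbp5. With that component as a covariate the log2 fold change of Fkbp5 was -1.07 for drug against vehicle (adjusted p = 0.225), 0.97 for UNX/DOCA vehicle against Sham (adjusted p = 0.299) and -0.10 for drug against Sham (adjusted p = 0.952). All drug libraries lay below 0 on this component, and Sham replicates 1, 2 and 4 lay above it. The covariate therefore also takes up part of the difference between groups, and these are not differences corrected for time of day. The labels used here give no time of day of collection, and the part of the clock in the Fkbp5 values was not tested further.

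**Figure D3:**
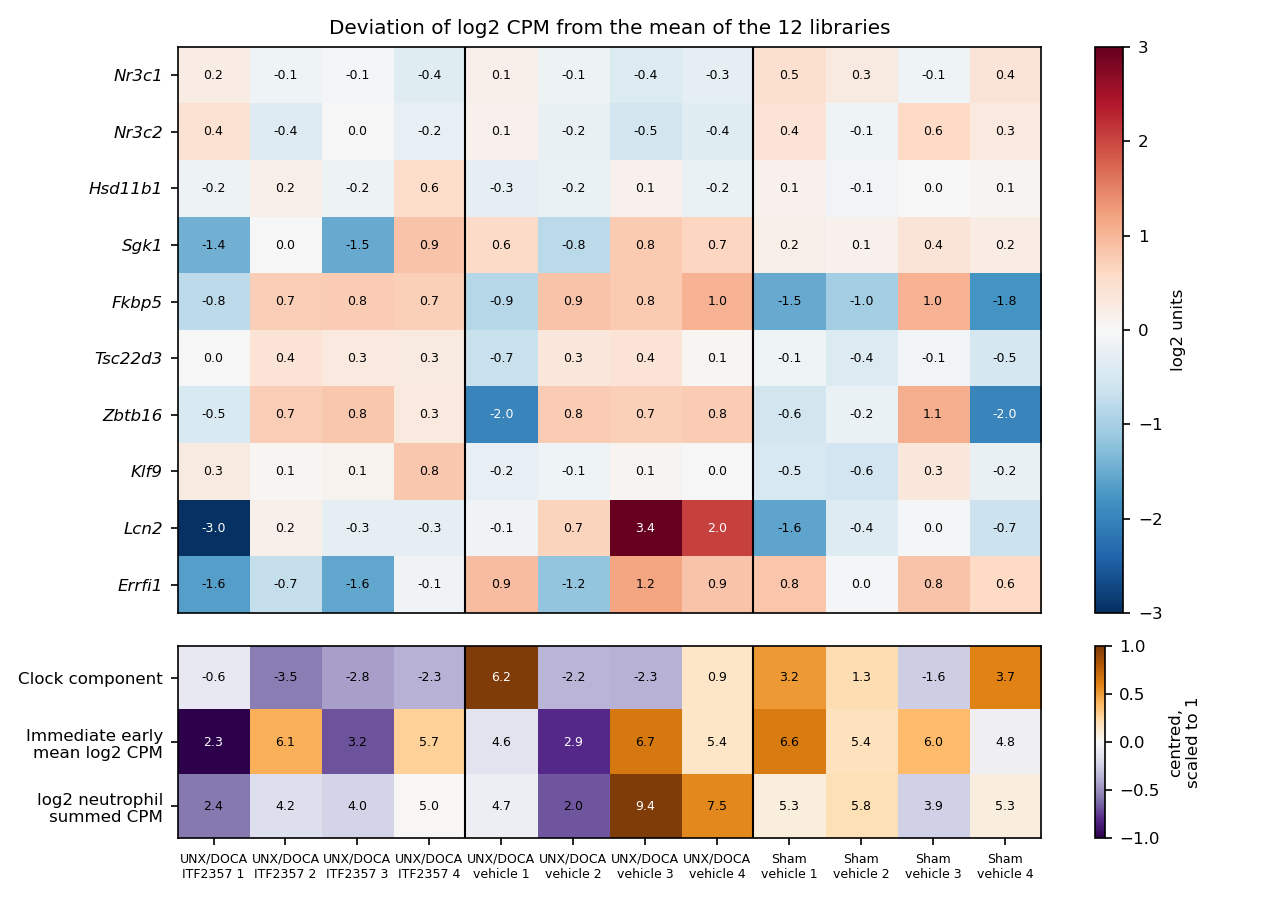
Deviation of log2 CPM of each gene from its mean over the 12 libraries (upper panel, log2 units), above the clock component, the mean log2 CPM of immediate early genes and the log2 of the summed neutrophil marker CPM (lower panel). Cells carry the values, with libraries ordered by group, and Fkbp5 and Zbtb16 share their low libraries in both UNX/DOCA groups.

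Tsc22d3 encodes GILZ, a leucine zipper protein that carries part of the anti-inflammatory action of glucocorticoids. It had 120, 160, 148 and 145 CPM in UNX/DOCA ITF2357, 76.2, 152, 160 and 125 CPM in UNX/DOCA vehicle, against 110, 90.9, 114 and 83.2 CPM in Sham vehicle. The drug libraries lay above each Sham library, with a mean of 143 ± 16.9 against 99.5 ± 14.8 CPM (SD, n = 4 each). The log2 fold change between them was 0.53 ± 0.19 (adjusted p = 0.161), so this separation did not pass over all genes. It passed with limma-voom (adjusted p = 0.0408) and in a fit of these 2 groups alone (adjusted p = 0.0456). Over 24 alternative fits the log2 fold change ran from 0.10 to 0.62 and the adjusted p from 0.0408 to 0.769. UNX/DOCA vehicle replicate 1 lay below each Sham library, while replicates 2, 3 and 4 lay above each of them. Replicates 2 and 4 also lay inside the drug range. The log2 fold change was 0.37 ± 0.19 for UNX/DOCA vehicle against Sham (adjusted p = 0.376) and 0.16 ± 0.19 for drug against vehicle (adjusted p = 0.706).

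Klf9 encodes a Krüppel-like transcription factor that is a direct glucocorticoid receptor target. It had 206, 178, 182 and 297 CPM in UNX/DOCA ITF2357, 144, 155, 179 and 168 CPM in UNX/DOCA vehicle, against 122, 115, 214 and 145 CPM in Sham vehicle. The drug group was the highest on average, but its lowest library lay just under the highest UNX/DOCA vehicle library, and Sham replicate 3 lay inside its range. Log2 fold changes were 0.42 ± 0.20 for drug against vehicle (adjusted p = 0.286), 0.12 ± 0.20 for UNX/DOCA vehicle against Sham (adjusted p = 0.811) and 0.54 ± 0.20 for drug against Sham (adjusted p = 0.165). Without Sham vehicle replicate 3 the last value was 0.75 (adjusted p = 0.0504). That was the largest over 24 alternative fits, which ran from 0.33 to 0.75 (adjusted p from 0.0504 to 0.513).

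Sgk1 encodes a kinase that is induced by both corticoid receptors and raises sodium transport in epithelia. A textbook response element for these receptors is a pair of short sites facing each other, AGAACA followed by any 3 bases and then TGTTC. Both strands of the RefSeq start windows (build GRCm38.p6, 250 bases before to 50 after each start) were searched for it. The element was found in 16 of 32851 windows, 0.0487%, which belong to 14 genes. Windows were on hand for 8 of the 10 genes, 16 in all, with none for Nr3c1 and Zbtb16. Sgk1 was the only gene of the 8 with the full element, in 1 of its 6 windows. Among the 36 other glucocorticoid targets listed for comparison, Trim63, which encodes the muscle ubiquitin ligase MuRF1, also held it. These windows are shown because they carry the element itself, in capitals, at chr10:21993640-21993939 (Sgk1, plus strand) and chr4:134314870-134315169 (Trim63, plus strand).
Sgk1: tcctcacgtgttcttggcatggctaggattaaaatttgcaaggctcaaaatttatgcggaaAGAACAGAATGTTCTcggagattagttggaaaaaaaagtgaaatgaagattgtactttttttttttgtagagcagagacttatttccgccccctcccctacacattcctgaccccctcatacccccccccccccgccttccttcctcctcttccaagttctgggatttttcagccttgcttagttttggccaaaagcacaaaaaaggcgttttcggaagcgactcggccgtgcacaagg
Trim63: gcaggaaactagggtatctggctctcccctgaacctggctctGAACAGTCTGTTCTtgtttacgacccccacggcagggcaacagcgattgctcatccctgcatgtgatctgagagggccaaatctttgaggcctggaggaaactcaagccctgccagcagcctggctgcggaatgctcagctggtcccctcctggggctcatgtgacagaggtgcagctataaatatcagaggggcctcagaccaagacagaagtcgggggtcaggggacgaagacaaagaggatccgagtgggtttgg
In Sgk1 the match reads on both strands and spans 15 bases, from 189 to 175 bases before that start. In Trim63 it spans 14 bases, from 208 to 195 before the start, and matches on the minus strand. A match is a description of the letters only, and gene counts do not tell the 6 Sgk1 starts apart. Only exact matches inside these windows were counted, so a gene without a match is not shown to lack an element.

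Sgk1 had 58.6, 156, 55.9 and 288 CPM in UNX/DOCA ITF2357, 236, 90.1, 272 and 250 CPM in UNX/DOCA vehicle, against 179, 174, 209 and 184 CPM in Sham vehicle. The Sham values lay close together (coefficient of variation 8.34%), while the drug group spread 5.15-fold and lay both below and above them. Log2 fold changes were -0.60 ± 0.50 for drug against vehicle (adjusted p = 0.556), 0.19 ± 0.50 for UNX/DOCA vehicle against Sham (adjusted p = 0.886) and -0.42 ± 0.50 for drug against Sham (adjusted p = 0.685). Trim63 averaged 223 ± 81.7 CPM in UNX/DOCA ITF2357, 200 ± 41.5 in UNX/DOCA vehicle, against 190 ± 32.4 in Sham vehicle (SD, n = 4 each), and the groups overlapped.

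Errfi1 encodes MIG6, a feedback inhibitor of the epidermal growth factor receptor that glucocorticoids can induce. It had 36.3, 68.6, 38.7 and 106 CPM in UNX/DOCA ITF2357, 215, 50.2, 259 and 205 CPM in UNX/DOCA vehicle, against 203, 111, 204 and 171 CPM in Sham vehicle. The drug libraries lay below each Sham library, and below 3 of the 4 UNX/DOCA vehicle libraries, with vehicle replicate 2 inside the drug range. The log2 fold change was -1.55 ± 0.48 for drug against vehicle, 0.342-fold (adjusted p = 0.132), and -1.47 ± 0.48 for drug against Sham vehicle, 0.361-fold (adjusted p = 0.125). UNX/DOCA vehicle and Sham vehicle differed by 0.08 ± 0.47 (adjusted p = 0.949). The drug difference passed with DESeq2 against both vehicle (adjusted p = 0.0414) and Sham (adjusted p = 0.0474), with limma-voom against Sham (adjusted p = 0.0397), and against vehicle without UNX/DOCA vehicle replicate 2 (-1.86, adjusted p = 0.0358). Over 24 alternative fits the adjusted p ran from 0.0358 to 0.537 against vehicle and from 0.0397 to 0.379 against Sham.

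Sgk1 and Errfi1 are also induced within minutes by growth factor and stress signals, and immediate early genes varied between the same libraries. Their mean log2 CPM over 14 genes was 2.34, 6.10, 3.17 and 5.69 in UNX/DOCA ITF2357, 4.61, 2.89, 6.66 and 5.36 in UNX/DOCA vehicle, against 6.62, 5.43, 5.96 and 4.84 in Sham vehicle. The lowest libraries, drug replicates 1 and 3 and UNX/DOCA vehicle replicate 2, were also the lowest for Sgk1 and Errfi1. With that mean as a covariate, Errfi1 had a log2 fold change of -1.27 for drug against vehicle (adjusted p = 0.0603) and -0.98 for drug against Sham (adjusted p = 0.103), and Sgk1 -0.51 and -0.05 (adjusted p = 0.346 and 0.940). Drug replicate 2 had the highest immediate early mean of its group (6.10) and 68.6 CPM of Errfi1. The part of immediate early induction in the levels of Sgk1 and Errfi1 was not tested further. Atf3, the gene of the immediate early list with the smallest p for drug against vehicle, averaged 23.4 ± 13.1 CPM in UNX/DOCA ITF2357, 85.5 ± 52.0 in UNX/DOCA vehicle, against 113 ± 57.0 in Sham vehicle (drug against vehicle, log2 fold change -1.87 ± 0.56, adjusted p = 0.123).

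Lcn2 encodes lipocalin 2, an iron-siderophore carrier made by neutrophils and stressed epithelium that is known as a mineralocorticoid target in heart and vessels. It had 0.887, 8.29, 6.13 and 6.09 CPM in UNX/DOCA ITF2357, 6.98, 11.9, 81.6 and 31.0 CPM in UNX/DOCA vehicle, against 2.43, 5.70, 7.32 and 4.73 CPM in Sham vehicle. The lowest value rests on 24 counts and the highest on 1963. Vehicle replicates 3 and 4 stood above the other 10 libraries, and vehicle replicate 1 lay inside the ranges of both other groups. The fitted ratio was 0.164 for drug against vehicle (log2 -2.61 ± 0.79, adjusted p = 0.125) and 6.48 for UNX/DOCA vehicle against Sham vehicle (2.7 ± 0.79, adjusted p = 0.161). Drug and Sham vehicle had means of 5.35 ± 3.15 and 5.04 ± 2.04 CPM (0.09 ± 0.79, adjusted p = 0.965). DESeq2 called both of the first 2 differences (adjusted p = 0.0278 and 0.0274).

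Neutrophil markers were high in the same libraries as Lcn2. The 10 markers together had 5.29 to 31.4 CPM in UNX/DOCA ITF2357, 25.6, 3.94, 653 and 178 CPM in UNX/DOCA vehicle replicates 1 to 4, and 14.9 to 56.5 CPM in Sham vehicle. Of these, S100a8 had 4.45, 0.356, 157 and 35.9 CPM in UNX/DOCA vehicle, and Ly6g, which defines the lineage, had 0 counts in replicates 1 and 2. UNX/DOCA vehicle replicate 2 had the lowest neutrophil sum of all libraries (3.94 CPM), yet its Lcn2 level of 11.9 CPM was above those of all drug and Sham libraries. Macrophage markers summed to 187 to 356 CPM in UNX/DOCA ITF2357, 195 to 523 in UNX/DOCA vehicle, against 203 to 242 in Sham vehicle. Without UNX/DOCA vehicle replicates 3 and 4 the log2 fold change of Lcn2 was -0.82 for drug against vehicle (adjusted p = 0.681) and 0.90 for UNX/DOCA vehicle against Sham (adjusted p = 0.838). How much of Lcn2 came from neutrophils was not tested.

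**Figure D4:**
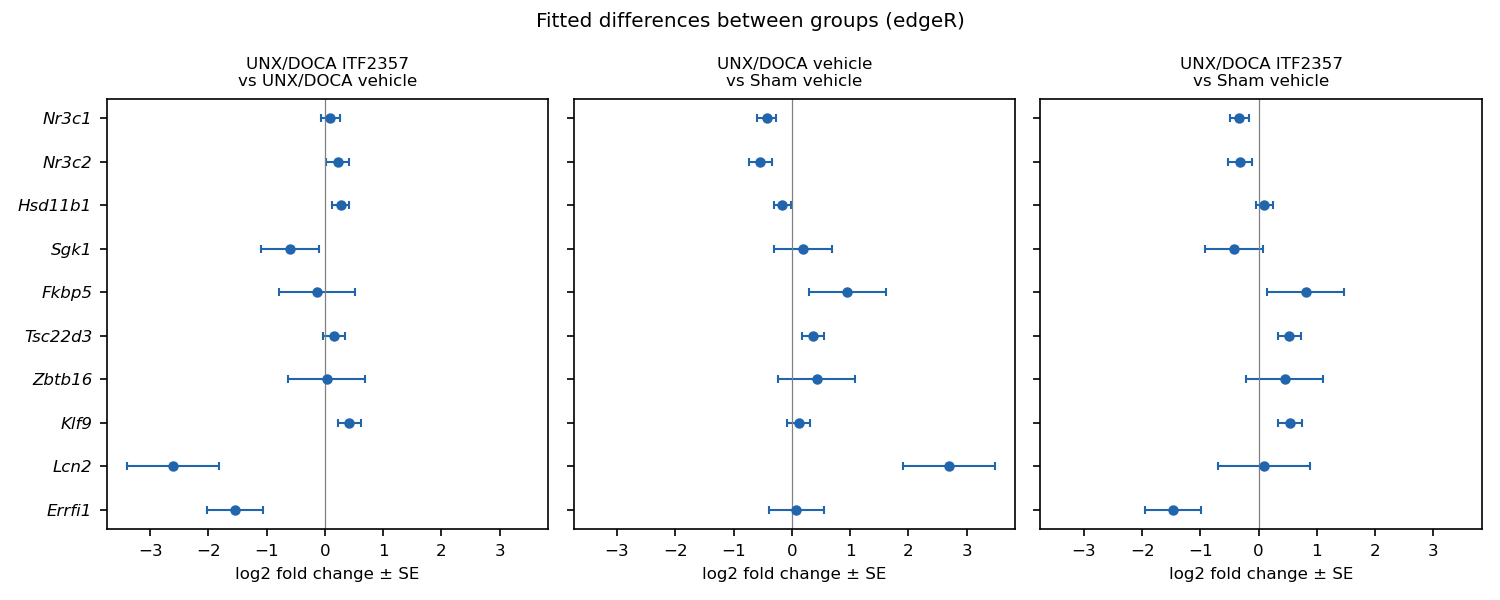
Fitted log2 fold change ± SE of the 10 genes in the 3 comparisons from the edgeR fit of 12 libraries. Lcn2 and Errfi1 lie farthest from 0, at -2.61 and -1.55 for drug against vehicle, and no gene passed at an adjusted p under 0.05.

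Other genes of the pathway were read from lists of chaperones, steroid enzymes and carriers, coregulators and targets, and 0 genes of these lists passed in the edgeR fit of any comparison. Of 35 other glucocorticoid targets tested, 27 lay above 0 for UNX/DOCA vehicle against Sham vehicle, where 8678 of all 16981 genes did. Their median log2 fold change was 0.41 against 0.01 for all genes. The targets were read in the same libraries, so they are not independent of each other. Per library the list overlapped between these groups. The mean log2 of CPM plus 0.5 was 5.966 in Sham replicate 3, above UNX/DOCA vehicle replicates 1 (5.443) and 2 (5.535). In that comparison 8 targets were higher and 1 lower at an unadjusted p under 0.05 (all genes, 9.42% and 6.47%). DESeq2 and limma-voom each called 5, all higher, where they called 3.49% and 3.29% of all genes. For UNX/DOCA ITF2357 against Sham vehicle the median was 0.23, with 9 higher and 1 lower at an unadjusted p under 0.05 (all genes, 10.7% and 9.39%), and 5 calls by DESeq2 (all genes, 6.95%) and 8 by limma-voom (9%). For drug against vehicle the median was -0.15, with 2 higher and 2 lower (all genes, 8.7% and 9.8%), and 2 calls by DESeq2 (all genes, 5.46%) and 0 by limma-voom (1.41%).

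Rgs2, which encodes a regulator of G protein signalling that restrains angiotensin signals, had 32.0, 46.4, 29.4 and 39.9 CPM in UNX/DOCA ITF2357, 28.0, 37.7, 42.6 and 32.1 in UNX/DOCA vehicle, against 22.6, 24.4, 27 and 24.3 in Sham vehicle. Each UNX/DOCA library thus lay above the 4 Sham libraries, with 0.59 ± 0.15 for drug (adjusted p = 0.0645) and 0.51 ± 0.15 for vehicle against Sham (adjusted p = 0.151), which passed in 6 and 2 of 24 alternatives. Angptl4, a secreted inhibitor of lipoprotein lipase, averaged 18 ± 14.7 CPM in UNX/DOCA ITF2357, 20 ± 10.5 in UNX/DOCA vehicle, against 4.28 ± 2.36 in Sham vehicle, and both UNX/DOCA groups lay above Sham without overlap (UNX/DOCA vehicle against Sham, 2.24 ± 0.59, adjusted p = 0.133). Gpx3, a secreted glutathione peroxidase, averaged 275 ± 25.3, 270 ± 46.9 and 191 ± 27.6 CPM in the same order of groups (drug against Sham, 0.52 ± 0.13, adjusted p = 0.0572, passing in 8 of 24 alternatives).

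Fbxo32, which encodes the muscle ubiquitin ligase atrogin-1, differed between drug and vehicle with the smallest p of the glucocorticoid target list. It had 164, 198, 159 and 186 CPM in UNX/DOCA ITF2357, 123, 94.2, 128 and 113 in UNX/DOCA vehicle, against 119, 91.4, 134 and 144 in Sham vehicle. The drug libraries lay above all others, with a log2 fold change of 0.63 ± 0.14 against vehicle (adjusted p = 0.0524) and 0.53 ± 0.14 against Sham (adjusted p = 0.0624). The difference from vehicle passed in 6 of 24 alternatives, DESeq2 (adjusted p = 0.00269) and a fit with no filter (0.00337) among them, over a range of 0.00269 to 0.237, and that from Sham in 4 of 24 (0.0116 to 0.196). Il1r2, a decoy receptor for interleukin-1 that is also expressed by neutrophils, averaged 0.319 ± 0.143 CPM in UNX/DOCA ITF2357 and 2.01 ± 2.02 in UNX/DOCA vehicle (-2.63 ± 0.87, adjusted p = 0.144), with its high values, 3.95 and 3.56 CPM, in vehicle replicates 3 and 4. Its Sham vehicle mean was 0.323 ± 0.146 CPM.

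Of 24 mineralocorticoid targets listed besides these genes, 20 were tested. Their median log2 fold change was -0.33 for drug against vehicle, 0.21 for UNX/DOCA vehicle against Sham and -0.05 for drug against Sham. At an unadjusted p under 0.05 there were 0 higher and 1 lower (all genes, 8.7% and 9.8%), 3 higher and 1 lower (9.42% and 6.47%), and 2 higher and 2 lower (10.7% and 9.39%). DESeq2 called 0, 1 and 0 of them (all genes, 5.46%, 3.49% and 6.95%) and limma-voom 0 in each. Lgals3 (galectin-3) averaged 3.30 ± 1.34 CPM in UNX/DOCA ITF2357, 5.18 ± 2.76 in UNX/DOCA vehicle, against 2.06 ± 0.687 in Sham vehicle (UNX/DOCA vehicle against Sham, 1.33 ± 0.40, adjusted p = 0.161). Nox4, which encodes an NADPH oxidase, averaged 1.6 ± 0.286, 1.78 ± 0.314 and 1.10 ± 0.307 CPM in those groups (0.69 ± 0.23, adjusted p = 0.186). Ccl2, a monocyte chemokine, averaged 1.36 ± 0.724 CPM in UNX/DOCA ITF2357, 4.81 ± 3.10 in UNX/DOCA vehicle, against 5.27 ± 4.24 in Sham vehicle. All groups overlapped, with -1.82 ± 0.72 for drug against vehicle (adjusted p = 0.206) and -1.95 ± 0.72 for drug against Sham (adjusted p = 0.163). UNX/DOCA vehicle and Sham vehicle differed by -0.13 ± 0.66 (adjusted p = 0.942).

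Among 14 receptor chaperones the median log2 fold change was -0.11 for drug against vehicle, -0.01 for UNX/DOCA vehicle against Sham and -0.11 for drug against Sham. In these comparisons 0, 0 and 1 of the 14 were higher at an unadjusted p under 0.05 (all genes, 8.7%, 9.42% and 10.7%). Lower at that level were 3, 1 and 5 (all genes, 9.8%, 6.47% and 9.39%). DESeq2 called 0, 1 and 3 of the chaperones (all genes, 5.46%, 3.49% and 6.95%) and limma-voom 0, 1 and 1 (1.41%, 3.29% and 9%), all lower. Fkbp4, the co-chaperone that competes with the Fkbp5 product and favours hormone binding, had 258, 233, 228 and 231 CPM in UNX/DOCA ITF2357, 243, 243, 207 and 240 in UNX/DOCA vehicle, against 281, 313, 262 and 300 in Sham vehicle. Both UNX/DOCA groups lay below each Sham library, with -0.28 ± 0.08 for drug (adjusted p = 0.0700) and -0.31 ± 0.08 for vehicle against Sham (adjusted p = 0.117), which passed in 5 and 3 of 24 alternatives. Hsp90aa1, a heat shock protein 90 gene, averaged 181 ± 14.6 CPM in UNX/DOCA ITF2357 and 230 ± 39.0 in UNX/DOCA vehicle (-0.34 ± 0.11, adjusted p = 0.139). Its Sham vehicle mean was 196 ± 17.5 CPM.

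Of 15 genes for steroid metabolism and transport only 6 could be tested, and the adrenal enzymes Cyp11b1, Cyp11b2 and Cyp21a1 had 0 counts in all libraries. In these 6, the medians were 0.16 for drug against vehicle, -0.22 for UNX/DOCA vehicle against Sham and 0.17 for drug against Sham, and neither DESeq2 nor limma-voom called any. At an unadjusted p under 0.05, 1, 0 and 0 were higher (all genes, 8.7%, 9.42% and 10.7%). Those lower were 0, 0 and 0 (all genes, 9.8%, 6.47% and 9.39%). Abcb1a, an efflux pump that carries corticosteroids, averaged 26.2 ± 5.90 CPM in UNX/DOCA ITF2357 and 18.1 ± 4.65 in UNX/DOCA vehicle (0.53 ± 0.18, adjusted p = 0.153). Its Sham vehicle mean was 22.8 ± 2.3 CPM. Among 15 coregulators the medians were 0.03, -0.15 and -0.14 in the same order of comparisons. Of the coregulators 0, 1 and 1 were higher at an unadjusted p under 0.05 (all genes, 8.7%, 9.42% and 10.7%). Lower at that level were 1, 4 and 2 (all genes, 9.8%, 6.47% and 9.39%). DESeq2 called 1, 0 and 0 of the coregulators (all genes, 5.46%, 3.49% and 6.95%) and limma-voom 0 in each.

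**Figure D5:**
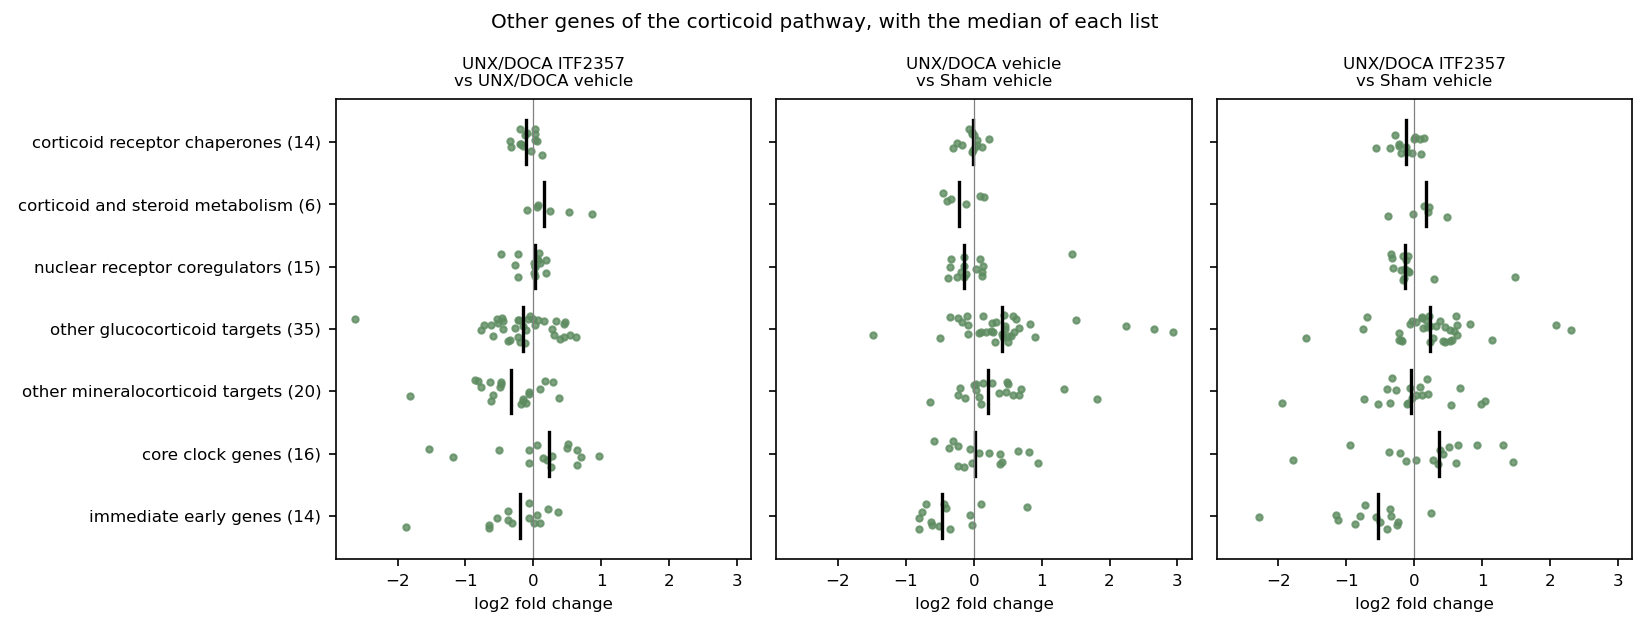
Log2 fold changes of the other pathway genes in the 3 comparisons, with 1 point per gene, a bar at the median of each list and the number tested in brackets. The median of other glucocorticoid targets is 0.41 for UNX/DOCA vehicle against Sham vehicle and -0.15 for UNX/DOCA ITF2357 against UNX/DOCA vehicle.

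The genes most like each of the 10 over the 12 libraries were taken from 12007 named genes with a mean of at least 1 CPM, by Pearson's r of log2 CPM, as a description. Nr3c1 ran closest to Esrra (r = 0.954), Fbxw7 (0.941) and Adgra3 (0.939), and Nr3c2 to the pseudogene Sms-ps (0.913), Kcnj5 (0.903) and Yjefn3 (0.891). For Sgk1 they were Sik1 (0.959), Adamts1 (0.938), which is in the mineralocorticoid target list, and Csrnp1 (0.930), and for Errfi1 Thbs1 (0.951), Cxcl2 (0.944) and Fam122a (0.933). Adamts1 was lowest in drug replicates 1 and 3 and UNX/DOCA vehicle replicate 2 (24.4, 33.4 and 51.2 CPM). Sgk1 and the immediate early genes were lowest in the same libraries. By rank, Adamts1 and Sgk1 had a lower correlation (Spearman's rho 0.692). Lcn2 was closest to Limk1 (0.958), Hs3st1 (0.947) and Adgrd1 (0.947). Tsc22d3 ran closest to Itpripl1 (0.959), Ccs (0.930) and Lfng (0.928), Klf9 to Saraf (0.942), Sap30bp (0.939) and Vti1b (0.925), and Hsd11b1 to Sdf2 (0.901), P2ry14 (0.874) and Caap1 (0.825). For Fkbp5 they were Bcl2l1, Map3k6 and Agap2, with no r given because its libraries lie at separate levels. Zbtb16 ran closest to Mxd4 (0.906), Galnt15 (0.896) and the pseudogene Rps19-ps6 (0.894).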

How the data were processed

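The authors deposited raw counts per Ensembl gene for 12 libraries, with no normalization. Per the submitters' processing notes, FastQC 0.11.9, STAR 2.7.10b and the mm39 build were used. The counting tool, strand setting and annotation release were not given in the sources used here. Totals of 23.4 to 34.9 M counts set the counting precision. Symbols came from a GRCm38 annotation by Ensembl identifier, as did exon lengths. The test was edgeR 4.0.16 (R 4.3.3): filterByExpr (10 counts), TMM, and a robust quasi-likelihood fit of 12 libraries with a term per group (9 residual degrees of freedom, common biological coefficient of variation 0.187). Adjusted p values are Benjamini-Hochberg over 16981 genes, and an SE is the absolute log2 fold change over the square root of F. In data simulated with each gene varying independently, 77% of 2-fold and 92% of 3-fold changes were recovered for drug against vehicle. Of 178 calls, 9 were false. The changes were set in 200 randomly drawn genes, with no variation shared between the genes of a library. These shares therefore do not give the recovery for the 10 genes.

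The labels number the drug libraries differently in a treatment field, and their titles were used. The labels call the libraries of a group biological replicates. Centred expression of same-numbered libraries correlated between -0.19 and 0.25 over 12 pairs, and that of differently numbered libraries between -0.482 and 0.383. These ranges showed no pairing by number, and whether libraries of the same number shared a cage or day was not tested. The 10 genes and the lists, which come from general knowledge, were chosen with earlier results of these data known. The naming rule took the 10 genes in full, up to 3 genes of each list with the smallest p in each comparison, of which fewer are described and 1 is not reported here, and the 3 genes most like each of the 10. Trim63 (for its element), S100a8 and Ly6g were named outside it, after their values were seen. Alternatives were other scalings and filters, DESeq2 1.42.0, limma-voom (limma 3.58.1), fits of 2 groups, a replicate block, covariates and libraries left out.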

Additional observations from a re-analysis of the deposited data

Results flagged for a closer look

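In 30 groups of 4 values (10 genes in 3 groups), the highest or lowest library stood apart by more than Dixon's critical ratio of 0.829 in 4, where chance flags about 1 in 20 groups. Fkbp5 was flagged in UNX/DOCA ITF2357 replicate 1, which was low at 42.4 CPM (gap 0.951 of the range), and in Sham vehicle replicate 3, which was high at 151 CPM (0.887). Zbtb16 was flagged in UNX/DOCA vehicle replicate 1, which was low at 25 CPM (0.958). Hsd11b1 was flagged in UNX/DOCA vehicle replicate 3, which was high at 20.7 CPM (0.854). Lcn2 in UNX/DOCA vehicle was not flagged, because its high values came from 2 libraries.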

How the results depend on the processing

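Each value was recomputed under 24 alternatives, and a gene of the 10 was called in few. The count for drug against vehicle was 2 with DESeq2 (Lcn2 and Errfi1) and ran from 0 to 1 with each library left out. For UNX/DOCA vehicle against Sham it was 1 with DESeq2 and 1 with the immediate early covariate, both Lcn2 (adjusted p = 0.0274 and 0.0277), and 0 with each library left out. For drug against Sham it was 1 with DESeq2 (Errfi1), 2 with limma-voom (Tsc22d3, Errfi1) and 1 in a fit of 2 groups (Tsc22d3). Over all genes, calls for drug against vehicle numbered 153, and 352 with no filter, 928 with DESeq2, 239 with limma-voom, 5 in a fit of 2 groups, 68 with the replicate block, 98 with the clock covariate, 12 without UNX/DOCA vehicle replicates 3 and 4, and 14 to 243 with each library left out. For UNX/DOCA vehicle against Sham, 0 became 7 with upper-quartile scaling, 210 with no filter, 593 with DESeq2, 559 with limma-voom, 31 with the replicate block, 511 with the immediate early covariate, 1 without replicates 3 and 4, and 0 to 380 with each library left out. For drug against Sham, 298 became 1180 with DESeq2, 1528 with limma-voom, 475 in a fit of 2 groups, 192 with the replicate block, 10 with the clock covariate, 481 without UNX/DOCA vehicle replicates 3 and 4, and 17 to 616 with each library left out. The cause was not tested. The replicate block called 0 of the 10 genes in each comparison.

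The values whose sign turned had not passed in any of the fits named here. For drug against vehicle these were Tsc22d3 (-0.10) and Zbtb16 (-0.86) with the clock covariate, and Nr3c1 (-0.07) and Fkbp5 (0.23) without UNX/DOCA vehicle replicates 3 and 4. For UNX/DOCA vehicle against Sham they were Errfi1 with limma-voom (-0.15), with the replicate block (-0.01) and without replicates 3 and 4 (-0.38), and Sgk1 (-0.19) and Zbtb16 (-0.01) without those 2. For drug against Sham they were Lcn2 with limma-voom (-0.09), the replicate block (-0.01) and the clock covariate (-1.23), and with that covariate Fkbp5 (-0.10) and Zbtb16 (-0.73). With each library left out, values that turned sign ran for drug against vehicle from -0.02 to 0.21 (Nr3c1), -0.42 to 0.12 (Fkbp5), -0.03 to 0.27 (Tsc22d3) and -0.32 to 0.23 (Zbtb16). They ran from -0.14 to 0.39 for Errfi1 in UNX/DOCA vehicle against Sham, and from -0.08 to 0.18 for Hsd11b1 and -0.22 to 0.43 for Lcn2 in drug against Sham.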

Other observations

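Transcripts of kidney, looked for because kidney expresses several corticoid targets strongly, were found in most of these hearts. Slc34a1, Umod, Slc12a1 and Lrp2, which mark kidney tubule cells, were counted together with adrenal markers and Aqp2. Their sum was 18.5, 0.121, 16.6 and 17.9 CPM in UNX/DOCA ITF2357 replicates 1 to 4, 10.8, 12.8, 28.9 and 14.8 CPM in UNX/DOCA vehicle, and 0, 7.63, 0.0791 and 20.4 CPM in Sham vehicle. Each group except UNX/DOCA vehicle thus held a library with next to none, and Sham replicates 1 and 3 were almost free of them. Gpx3, which is made at high levels in kidney, had 288, 239, 276 and 295 CPM in UNX/DOCA ITF2357, 221, 244, 327 and 288 CPM in UNX/DOCA vehicle, and 172, 167, 200 and 226 CPM in Sham vehicle. In each of the last 2 groups it was highest in the library with the largest kidney sum. In UNX/DOCA ITF2357 it was highest in replicate 4, while replicate 1 had the largest sum. Sham replicate 3, almost free of kidney transcripts, had more Gpx3 (200 CPM) than Sham replicate 2 (167 CPM, kidney sum 7.63 CPM). The part of kidney RNA in Gpx3, Lcn2 or Sgk1 was not tested.

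Ppargc1a, a coactivator of mitochondrial genes, had 266, 214, 145 and 432 CPM in UNX/DOCA ITF2357, 70.4, 396, 132 and 437 CPM in UNX/DOCA vehicle, and 91.2, 83.3, 120 and 85.2 CPM in Sham vehicle. The drug libraries lay above each Sham library (log2 fold change 1.48 ± 0.53, adjusted p = 0.155), whereas UNX/DOCA vehicle replicate 1 lay under all Sham libraries (1.45 ± 0.53, adjusted p = 0.229).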
